A study of Mus musculus with 57 samples.

Results

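The genes described here encode the potassium channels of the Kcn families and the hyperpolarization-activated cation channels of the Hcn family. Members were the genes whose symbol begins with a Kcn family name or is one of the 4 Hcn genes and whose deposited value reached 35 in at least 3 of the 57 libraries. Of 102 matching symbols, 89 were members, among 45337 genes in all. A further 8 stayed below the level (Kcna5, Kcna7, Kcne1, Kcnj1, Kcnk7, Kcnk15, Kcnk16 and Kcnk18), and 5 antisense or opposite-strand transcripts were left out. Hcn4 and Kcnk9 lay just inside the level, with 3 libraries each and highest values of 42.0 and 101. Kcnj1 lay just outside it, with 2 libraries and a highest value of 36.0. By the role of their product the members fell into 4 HCN genes, 15 Kv1 to Kv4 pore-forming genes, 10 electrically silent Kv modifiers, 15 auxiliary subunits, 13 EAG and M-type genes, 8 calcium- and sodium-activated genes, 14 inward rectifiers and 10 two-pore-domain genes.

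RNA came from the brains of Sod1G86R mice, which carry a mutant Sod1 that models amyotrophic lateral sclerosis, and of wild-type (WT) mice. Each library held cells of 1 mouse labelled either CSN, the abbreviation used for corticospinal neurons, or control cells, which the labels describe no further. The CSN set had 13 Sod1G86R libraries (3, 4, 4 and 2 at ages 30, 60, 90 and 105) and 16 WT libraries (4 at each age). The control cells had 14 Sod1G86R libraries (3, 3, 4 and 4 at those ages) and 14 WT libraries (4, 2, 4 and 4). The ages are numbers in the sample titles, read here as days. Sex, strain, the promoter of the transgene and the way the cells were marked and collected are not given in the sources used here. Of the 32 mice, 25 gave both kinds of cells. The CSN against control fits took the 2 libraries of such a mouse as independent. A p-value below measures the spread between libraries of a group, each from a different mouse.

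Libraries held 22.2 to 64.2 M reads. Sod1 ranged from 80220 to 172200 in Sod1G86R CSN, against 1806 to 4562 in WT CSN, and from 38570 to 155500 in Sod1G86R control cells, against 1611 to 4244 in WT control cells, so each library matched its genotype label. Of 14 CSN and deep-layer markers 13 were higher in WT CSN than in WT control cells, and their sum was 76260 to 125500 in WT CSN and 11940 to 20410 in WT control cells. Markers of other cells were lower in WT CSN: 13 of 15 upper-layer and callosal, 7 of 12 GABAergic, 11 of 12 astrocyte, 12 of 12 oligodendrocyte, 8 of 8 oligodendrocyte precursor, 14 of 14 microglia and 12 of 14 endothelial and mural markers. No marker of these lists was at 0 in every library of either kind of cell. Mitochondrially encoded genes took 5.68 to 18.1% of the value in WT CSN and 0.811 to 2.55% in WT control cells, with no overlap.

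Potassium channels let potassium leave the cell and so set the resting potential, end the action potential and space the spikes of a train. HCN channels open when the membrane is hyperpolarized and pass a mixed cation current, called Ih, which is a known property of the thick-tufted pyramidal neurons of layer 5 that project to the spinal cord. Most potassium channels are assemblies, in which pore-forming subunits join with silent relatives or with auxiliary proteins that change their gating or their place in the membrane.

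The pore of these channels is lined by a selectivity filter, a short stretch that most members share and that is shown here because it is what makes them one superfamily. A script searched the longest open reading frame of each protein-coding GENCODE M21 transcript for the filter pattern, and found it in every member of the HCN, Kv1 to Kv4, silent modifier, EAG and M-type, calcium- and sodium-activated, inward-rectifier and two-pore-domain classes. The pattern is not specific to pores, since it also matched 3 of the 15 auxiliary subunits, Kcnab1, Kcnab2 and Kcnab3. The coding bases around it are given 5′ to 3′ for 5 members whose levels are described below. Capitals mark the 3 central codons of the filter. Kcnk1 has 2 matches, since each subunit of a two-pore-domain channel carries a pair of pore loops.
Kcna2: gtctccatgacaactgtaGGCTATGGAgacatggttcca
Kcnc2: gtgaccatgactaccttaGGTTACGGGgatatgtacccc
Kcnh4: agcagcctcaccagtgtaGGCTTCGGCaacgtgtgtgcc
Kcnj2: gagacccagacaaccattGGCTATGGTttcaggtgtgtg
Kcnk1, first pore loop: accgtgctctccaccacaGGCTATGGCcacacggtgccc
Kcnk1, second pore loop: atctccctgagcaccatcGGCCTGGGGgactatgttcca

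CSN were set against control cells within each genotype to ask which channel genes differ between them. In WT mice 64 of the 89 members (71.9%) differed by limma's test with Benjamini-Hochberg adjustment over all genes (adjusted p under 0.05), against 56.3% of the 22032 genes tested. Of these members 37 were higher in CSN (41.6% of members, against 26.8% of all genes) and 27 were lower (30.3%, against 29.5% of all genes). Of 15 pan-neuronal genes 12 were also higher in CSN and none lower (median log2 fold change 1.21), and in Sod1G86R mice 12 were higher and 1 lower (median 1.31). The part of the share of neurons in the rises of members was not tested. The median absolute log2 fold change was 0.86 over the members and 0.47 over all genes. Fold changes are on the scale log2(value + 34.59), which understates changes of low genes, and a value here is the authors' normalized value. These are bulk samples, so fewer cells of a type and less RNA per cell cannot be told apart.

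In Sod1G86R mice 63 members (70.8%) differed between CSN and control cells, against 55.5% of all genes. Of these 32 were higher in CSN (24.9% of all genes were) and 31 were lower (30.6% of all genes were). The 2 genotypes share no library, but both contrasts came from the same fit and share its estimate of the spread. In both, 56 members were called, which is 87.5% of those called in WT and 88.9% of those called in Sod1G86R. All 56 had the same direction, 32 higher and 24 lower in CSN. The share of all genes called in both genotypes is not given here, so this overlap is not shown to be particular to the members. The 8 members called in WT only and the 7 called in Sod1G86R only are not shown to differ between genotypes by that.

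**Figure D1:**
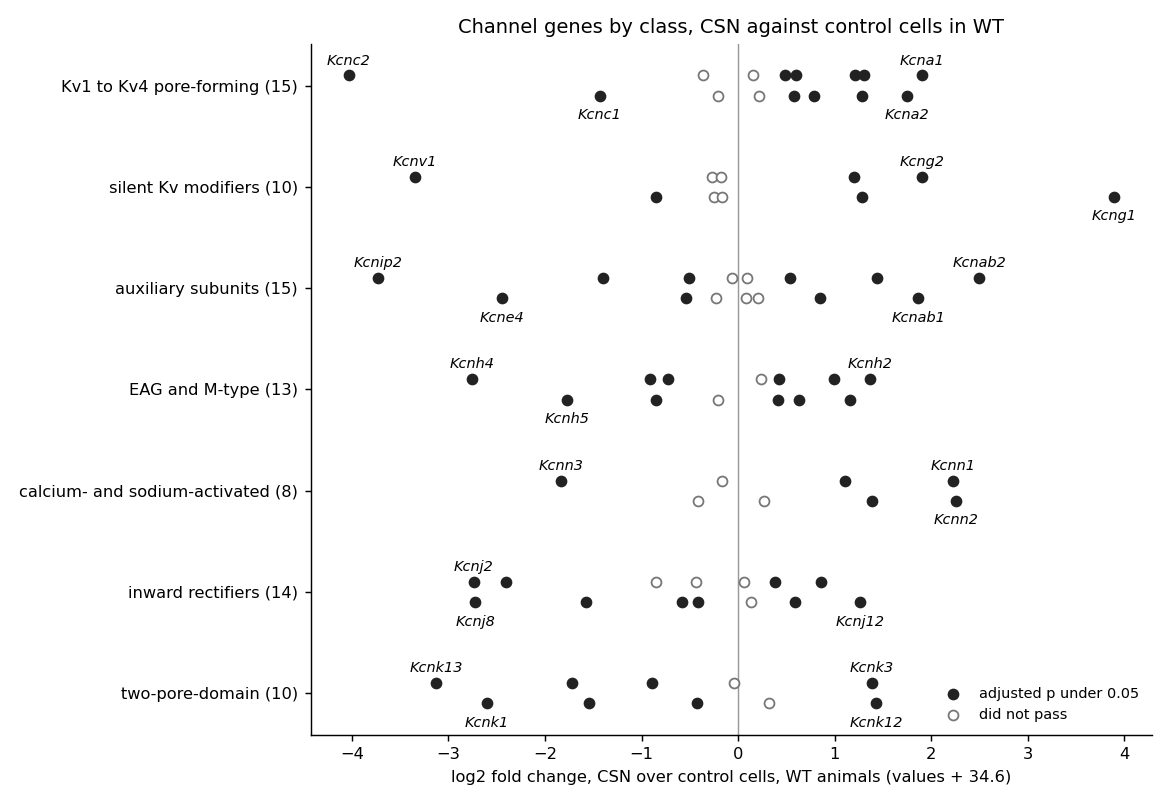
Log2 fold change of the members of 7 role classes, CSN over control cells in WT mice. Each point is 1 gene, filled where the adjusted p was under 0.05 and open where it was not. Kcng1 lies farthest right (3.90) and Kcnc2 farthest left (-4.03), and the two-pore-domain and inward-rectifier classes each hold 6 filled points below 0.

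Of the HCN genes, which encode the subunits of the Ih channel, Hcn2 and Hcn3 were higher in WT CSN and Hcn4 did not pass. Hcn3, a slowly opening subunit (ENSMUSG00000028051, chr3:89146074-89160196, minus strand, GRCm38), had 191.0, 454.9 and 1010 (lowest, median, highest) in WT CSN, against 10.1, 101.2 and 249.2 in WT control cells. Only the tails of the groups overlapped, and the log2 fold change was 2.00 ± 0.25 (SE; limma adjusted p = 2.74e-09). In Sod1G86R mice the log2 fold change of Hcn3 was 1.004 (adjusted p = 0.00135), a call lost with the mitochondrial share in the fit (adjusted p = 0.4225). The Hcn3 gene overlaps Pklr, a barely detected gene, over 17.1% of its exon bases, so a few of its reads are uncertain. Hcn2 averaged 602.2 ± 172.5 in WT CSN and 404.8 ± 442.2 in WT control cells (SD, n = 16 and 14), with overlapping groups and a log2 fold change of 0.97 ± 0.27 (SE; limma adjusted p = 0.00224). Hcn4, the pacemaker subunit of the heart, averaged 8.25 in WT CSN and 10.3 in WT control cells, near the lower limit of measurement (limma adjusted p = 0.864).

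Per kilobase of exon, Hcn3 took similar mean shares of the summed HCN level, 12.3 ± 5.11% in WT CSN and 13.9 ± 9.08% in WT control cells (SD, n = 16 and 14). The shares overlapped between the groups. They were not tested, nor were the other family shares below.

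**Figure D2:**
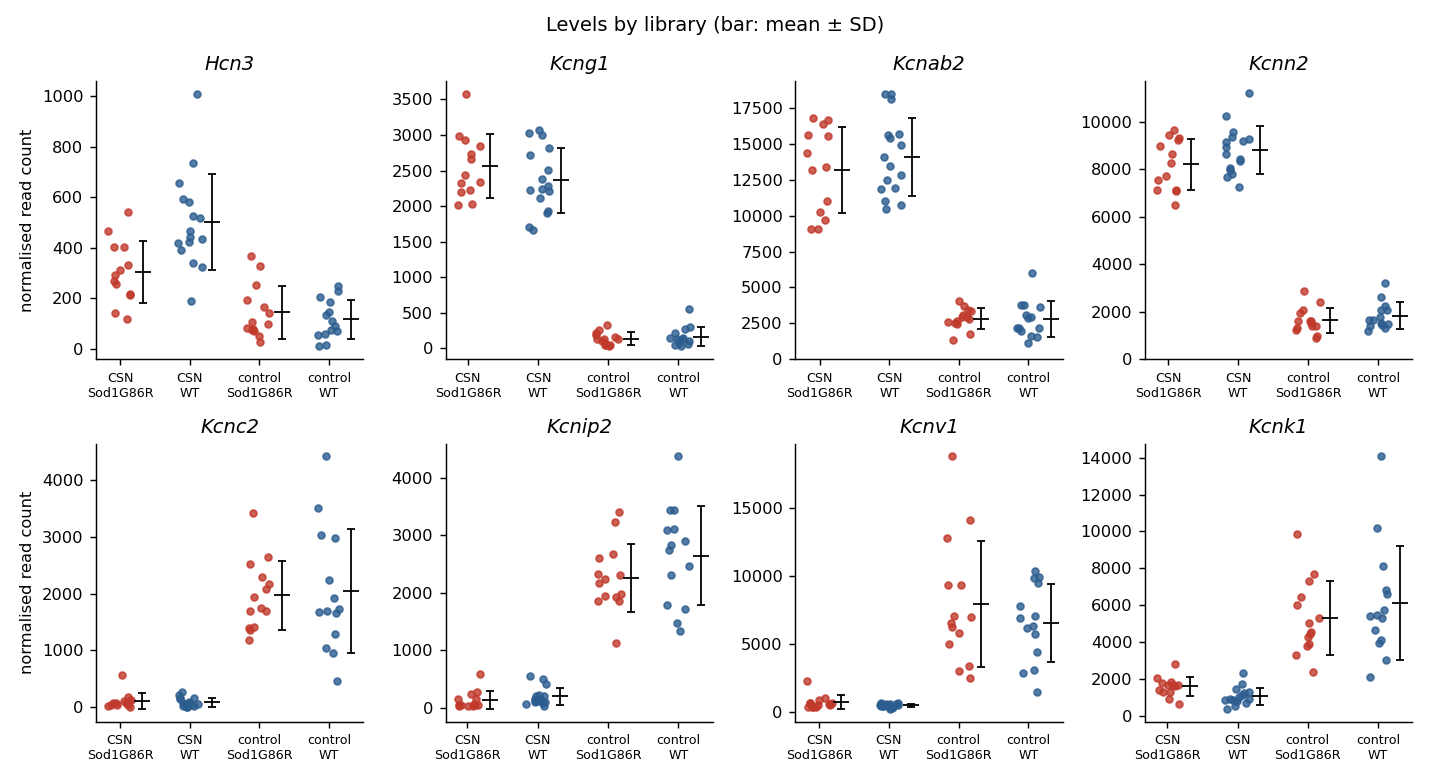
Deposited value of 8 members in every library (linear axis), with columns CSN Sod1G86R, CSN WT, control Sod1G86R and control WT, where each point is 1 library and bars show mean ± SD. Kcng1, Kcnab2 and Kcnn2 lie higher in every CSN library than in every control library of the same genotype, and Kcnc2, Kcnip2 and Kcnv1 lie lower, while the groups of Hcn3 and Kcnk1 overlap.

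Among the 15 Kv1 to Kv4 genes, which encode the pores of the delayed rectifiers and A-type channels, 9 were higher in WT CSN, 2 were lower and 4 did not pass. Kcna1, an axonal low-threshold channel, had 2436, 4810 and 5352 (lowest, median, highest) in WT CSN, against 367.0, 1166 and 1583 in WT control cells. Kcna2, its usual partner, had 11150, 16380 and 19260 in WT CSN, against 2517, 4642 and 7642 in WT control cells. Neither gene overlapped between the groups, and the log2 fold changes were 1.90 and 1.75 (limma adjusted p = 4.31e-16 and 9.00e-15).

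Kcnc2, a fast Kv3 channel, which in the cortex is known from fast-spiking interneurons (chr10:112271121-112467024, plus strand), had 4.17, 60.2 and 267.3 (lowest, median, highest) in WT CSN, against 464.9, 1713 and 4423 in WT control cells. The groups did not overlap, and its log2 fold change of -4.03 ± 0.27 (SE; limma adjusted p = 1.46e-17) was the lowest of all members. Kcnc1 averaged 439.4 ± 195.2 in WT CSN and 1284 ± 533.5 in WT control cells (SD), with overlap and a log2 fold change of -1.43 (limma adjusted p = 5.24e-10). Per kilobase, Kcnc4 held 73.0 ± 6.93% of the summed Kv3 level in WT CSN and 32.7 ± 8.04% in WT control cells, while Kcnc2 held 2.73 ± 2.41% in WT CSN and 42.1 ± 9.82% in WT control cells. Neither share overlapped between the groups. The sum of 12 GABAergic markers was 483.1 to 4271 in WT CSN and 5339 to 22430 in WT control cells, and its part in the fall of Kcnc1 and Kcnc2 was not tested.

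The silent modifiers do not form channels alone and join Kv2 subunits. Of 10 silent modifiers 4 were higher, 2 were lower and 4 did not pass. Kcng1 (chr2:168260117-168281736, minus strand) had 1658, 2255 and 3076 (lowest, median, highest) in WT CSN, against 33.6, 135.5 and 548.2 in WT control cells. The groups did not overlap, and the log2 fold change of 3.90 ± 0.20 (SE; limma adjusted p = 2.88e-22) was the highest of all members. In Sod1G86R mice it was 4.06. Kcng2 averaged 658.6 ± 151.1 in WT CSN and 167.8 ± 105.8 in WT control cells (SD), again with no overlap and a log2 fold change of 1.91 (limma adjusted p = 6.75e-08). Kcnf1 was 1.28 higher on the log2 scale (limma adjusted p = 2.83e-09).

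Kcnv1, a silent subunit of another family (chr15:45106284-45114920, minus strand), went the other way. It had 271.1, 526.9 and 681.7 (lowest, median, highest) in WT CSN, against 1495, 6651 and 10390 in WT control cells, with no overlap and a log2 fold change of -3.35 ± 0.21 (SE; limma adjusted p = 1.80e-18). Kcns1 was 0.85 lower on the log2 scale (log2 fold change -0.85, limma adjusted p = 0.000248), with means of 226.7 in WT CSN and 455.3 in WT control cells, and with the mitochondrial share in the fit its log2 fold change was 0.53. Upper-layer and callosal markers summed to 10500 to 17520 in WT CSN and 24020 to 85190 in WT control cells, and their part in the Kcnv1 result was not tested.

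Of the 15 auxiliary subunits 5 were higher in WT CSN, 5 were lower and 5 did not pass. Kcnab2, a Kv beta subunit that binds Kv1 channels (chr4:152390742-152477871, minus strand), had 10500, 13800 and 18540 (lowest, median, highest) in WT CSN, against 1108, 2514 and 6006 in WT control cells. The groups did not overlap, and the log2 fold change was 2.50 ± 0.15 (SE; limma adjusted p = 8.46e-20). Kcnab1, another Kv beta gene, averaged 2750 ± 592.8 in WT CSN and 895.8 ± 502.5 in WT control cells (SD), without overlap (log2 fold change 1.87, limma adjusted p = 1.30e-07). Kcnmb4, the neuronal beta subunit of the large-conductance calcium-activated (BK) channel, averaged 2982 ± 543.8 in WT CSN and 1179 ± 451.9 in WT control cells (log2 fold change 1.44, limma adjusted p = 4.73e-12), although 20.8% of its exon bases overlap an opposite-strand transcript that the counts cannot separate.

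The KChIP genes encode calcium-binding partners of the A-type Kv4 channels, of whose 3 genes Kcnd1 was higher in WT CSN (log2 fold change 0.60, limma adjusted p = 0.0219), while Kcnd2 and Kcnd3 did not pass the test (log2 fold changes 0.22 and 0.16). The call of Kcnd1 was lost without control WT 60 replicate 2 (limma adjusted p = 0.110). Kcnip2 (chr19:45791839-45816061, minus strand) had 34.99, 129.4 and 551.9 (lowest, median, highest) in WT CSN, against 1340, 2794 and 4375 in WT control cells. The groups did not overlap, and the log2 fold change was -3.73 ± 0.28 (SE; limma adjusted p = 5.98e-16). Per kilobase, Kcnip2 held 3.88 ± 3.24% of the summed KChIP level in WT CSN and 29.9 ± 10.6% in WT control cells, with no overlap. Kcnip3 held 44.6 ± 7.30% in WT CSN and 18.2 ± 11.6% in WT control cells, with overlap. Kcnip1 averaged 190.6 ± 98.7 in WT CSN and 656.1 ± 717.7 in WT control cells (log2 fold change -1.39, limma adjusted p = 0.00027), and with the mitochondrial share in the fit its log2 fold change was 0.56 and no longer passed.

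**Figure D3:**
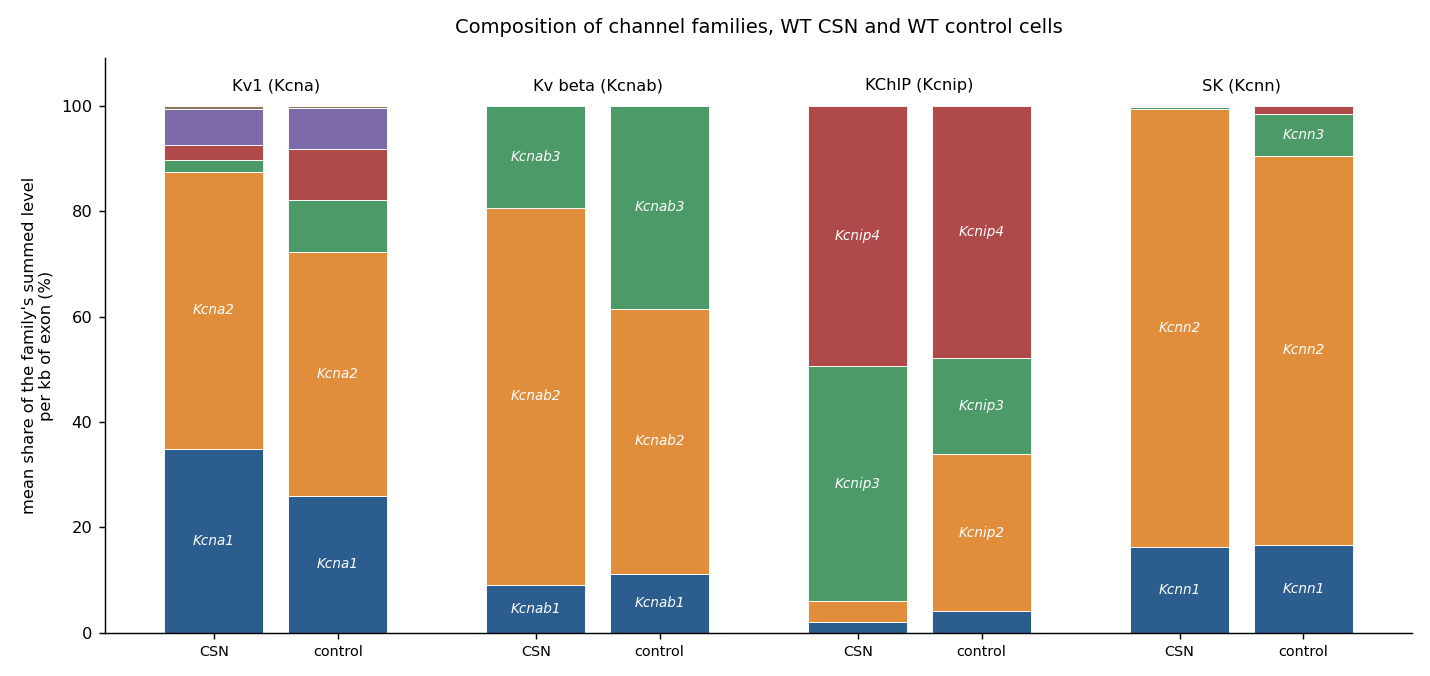
Mean share of each gene in the summed level of its family per kilobase of exon, in percent, for WT CSN and WT control cells, as stacked bars that add to 100 in each family. Kcnip2 takes 3.88% of the KChIP bar in CSN, a segment too small to name, and 29.9% in control cells, and Kcnab2 takes 71.4% of the Kv beta bar in CSN and 50.4% in control cells.

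The promoters of 2 genes that were higher in WT CSN and of 2 that were lower are shown to let a reader set their sequences side by side, in the GRCm38.p6 build of RefSeq, from 250 bases before to 50 bases after the annotated start on the strand of the gene. Where a gene has several starts, the window listed first in the table was taken. Capitals mark the GC box, GGGCGG, or CCGCCC on the other strand. The Kcna2 window at chr3:107101317-107101616 is on the plus strand, and that of Kcnab2 at chr4:152477500-152477799 on the minus strand. The Kcnc2 window at chr10:112269767-112270066 is on the plus strand, and that of Kcnip2 at chr19:45816014-45816313 on the minus strand.
Kcna2: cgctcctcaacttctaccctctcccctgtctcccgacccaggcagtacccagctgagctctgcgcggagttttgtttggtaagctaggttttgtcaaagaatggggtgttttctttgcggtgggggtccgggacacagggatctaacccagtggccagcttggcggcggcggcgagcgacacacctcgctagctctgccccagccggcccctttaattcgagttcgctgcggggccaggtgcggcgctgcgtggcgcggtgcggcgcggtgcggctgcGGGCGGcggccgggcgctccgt
Kcnab2: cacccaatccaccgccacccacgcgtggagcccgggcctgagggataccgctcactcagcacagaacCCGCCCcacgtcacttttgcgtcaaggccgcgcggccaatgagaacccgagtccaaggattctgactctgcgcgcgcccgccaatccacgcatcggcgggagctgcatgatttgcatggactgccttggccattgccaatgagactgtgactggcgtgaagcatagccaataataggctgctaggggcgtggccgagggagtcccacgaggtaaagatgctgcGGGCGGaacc
Kcnc2: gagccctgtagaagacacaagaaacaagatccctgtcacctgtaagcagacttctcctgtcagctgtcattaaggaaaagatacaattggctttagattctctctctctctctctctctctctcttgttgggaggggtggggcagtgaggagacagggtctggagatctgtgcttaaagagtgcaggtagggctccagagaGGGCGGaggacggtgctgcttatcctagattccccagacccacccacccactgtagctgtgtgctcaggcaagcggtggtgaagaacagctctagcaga
Kcnip2: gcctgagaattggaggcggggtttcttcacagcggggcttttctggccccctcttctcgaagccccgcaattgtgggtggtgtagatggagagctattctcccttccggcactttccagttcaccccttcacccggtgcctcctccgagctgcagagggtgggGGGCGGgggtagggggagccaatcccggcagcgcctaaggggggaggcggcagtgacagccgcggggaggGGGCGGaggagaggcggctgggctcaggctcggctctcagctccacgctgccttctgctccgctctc

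The Kcnab2 and Kcnip2 windows each held 2 GC boxes and those of Kcna2 and Kcnc2 held 1 each. Guanine and cytosine made up 66.7% of the Kcna2 window, 62.7% of the Kcnab2 window, 52.7% of the Kcnc2 window and 67% of the Kcnip2 window. RefSeq windows were found for 63 of the 89 members, 88 windows in all. A GC box was in 51.1% of the 88 windows, against 35.7% of the 32851 windows of all genes. It was in 62.1% of the 29 windows of members higher in WT CSN and in 45.7% of the 35 windows of members lower there. The letters TATAAA, searched on both strands, were in 5.68% of the member windows and in 13.6% of all windows, and the full cAMP response element TGACGTCA was in 0 of 88 and in 1.79% of all. These counts are a description of the letters and were not tested.

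Of the 13 EAG and M-type genes 6 were higher in WT CSN, 5 were lower and 2 did not pass. Kcnh2, an ERG channel, was 1.37 higher on the log2 scale, and Kcnh3, an ELK channel, 0.63 higher (limma adjusted p = 7.06e-09 and 0.000222). Kcnh4, an ELK gene whose filter codons are shown above, had 26.1, 76.0 and 139.2 (lowest, median, highest) in WT CSN, against 267.5, 697.8 and 1064 in WT control cells. The groups did not overlap, and its log2 fold change was -2.75 ± 0.22 (SE; limma adjusted p = 1.83e-15). The EAG genes Kcnh5 and Kcnh1 had log2 fold changes of -1.77 and -0.73 (limma adjusted p = 4.60e-07 and 5.95e-06).

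Among the 8 calcium- and sodium-activated genes 4 were higher in WT CSN, 1 was lower and 3 did not pass. Kcnn2, a small-conductance (SK) channel that carries part of the afterhyperpolarization, had 7246, 8773 and 11190 (lowest, median, highest) in WT CSN, against 1160, 1643 and 3210 in WT control cells. The groups were far apart, with a log2 fold change of 2.26 ± 0.12 (SE; limma adjusted p = 1.97e-21). Kcnn1, another SK gene, averaged 1052 ± 230.4 in WT CSN and 246.2 ± 182.0 in WT control cells (SD; log2 fold change 2.23, limma adjusted p = 8.05e-13). Kcnt1, a sodium-activated channel, averaged 4254 ± 671.7 in WT CSN and 1636 ± 460.6 in WT control cells, with no overlap (log2 fold change 1.39, limma adjusted p = 1.02e-14). A further SK gene, Kcnn3, was lower, at 49.8 ± 39.2 in WT CSN and 269.3 ± 149.3 in WT control cells (log2 fold change -1.84, limma adjusted p = 1.79e-07).

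The inward rectifiers hold the resting potential, and 4 of their 14 genes were higher in WT CSN, 6 were lower and 4 did not pass. Kcnj12 and Kcnj4, both of the classic Kir2 family, had log2 fold changes of 1.26 and 0.86 (limma adjusted p = 0.000265 and 4.57e-05), and Kcnj3, a G-protein-gated channel, 0.59 (limma adjusted p = 0.00299), with part of its exons shared with another gene model. A further Kir2 gene, Kcnj2, had 5.95, 24.9 and 65.3 (lowest, median, highest) in WT CSN, against 101.7, 390.7 and 1036 in WT control cells. Its groups did not overlap, and the log2 fold change was -2.74 ± 0.22 (SE; limma adjusted p = 2.50e-15). Kcnj16, known from glia, averaged 418.5 ± 428.9 in WT CSN and 1683 ± 1147 in WT control cells (log2 fold change -2.40, limma adjusted p = 0.000103). Kcnj8, the potassium channel pore of mural cells, averaged 8.19 ± 6.27 in WT CSN and 338.1 ± 335.3 in WT control cells (log2 fold change -2.72, limma adjusted p = 2.75e-10).

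Beside these falls, astrocyte markers summed to 17680 to 125900 in WT CSN and 37820 to 430100 in WT control cells, and endothelial and mural markers to 809.3 to 5088 in WT CSN and 6006 to 47770 in WT control cells. The endothelial and mural sums did not overlap and the astrocyte sums did. The part of these cells in the levels of Kcnj2, Kcnj8 and Kcnj16 was not tested.

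Of the 10 two-pore-domain genes, whose channels carry background leak current, 2 were higher in WT CSN, 6 were lower and 2 did not pass. Kcnk3, a TASK channel, averaged 879.0 ± 170.8 in WT CSN and 324.2 ± 103.2 in WT control cells (SD), without overlap (log2 fold change 1.39, limma adjusted p = 9.93e-11). Kcnk12 was 1.43 higher on the log2 scale (limma adjusted p = 1.73e-05). Kcnk1, the TWIK channel (chr8:125995170-126030685, plus strand), had 373.7, 932.7 and 2331 (lowest, median, highest) in WT CSN, against 2093, 5461 and 14070 in WT control cells. Its groups overlapped only at the highest CSN library, and the log2 fold change was -2.60 ± 0.20 (SE; limma adjusted p = 5.12e-16). Kcnk13, known from microglia, averaged 104.7 ± 133.3 in WT CSN and 1033 ± 671.6 in WT control cells (log2 fold change -3.13, limma adjusted p = 2.46e-11), and microglia markers summed to 3954 to 24240 in WT CSN and 41750 to 417700 in WT control cells. The part of microglia in the Kcnk13 level was not tested.

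The order of the members by level per kilobase of exon differed between the kinds of cells. In WT CSN Kcnab2 ranked 1 of 89, at a level of 2532 per kilobase, Kcna2 ranked 2 at 1350 and Kcnn2 ranked 3 at 1179. In WT control cells the same genes ranked 9, 15 and 25. Kcnk1 ranked 19 in WT CSN and 1 in WT control cells, and Kcnv1 ranked 40 in WT CSN and 2 in WT control cells. Kcng1 ranked 17 in WT CSN and 62 in WT control cells.

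In WT mice the mitochondrial share and the kind of cell cannot be told apart, since the shares did not overlap, and with that share in the fit 35 members were called, 33 of them among the 64. The calls of Kcng1, Kcna1, Kcna2, Kcnab2, Kcnn2, Kcnc2, Kcnip2 and Kcnv1 held in that fit, and those of Hcn3, Kcnh2, Kcnj3, Kcnj4, Kcnj8, Kcnj12, Kcnj16, Kcnip1, Kcns1, Kcnh3, Kcnh5 and Kcnk1 did not. In Sod1G86R mice 50 members were called with that share in the fit, 49 of them among the 63. The percentage of all genes called in that fit is not given here, so the lower counts are not shown to be particular to the members.

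The CSN against control contrast was then compared between the genotypes as an interaction. It differed for 2 of 89 members (2.25%), against 6.26% of all genes. At an unadjusted p under 0.05 there were 11 members. Shares of all genes, here and below, are at the adjusted threshold and are no measure for the unadjusted counts. For Kcnk1 the difference (Sod1G86R minus WT) was 0.91 ± 0.28 on the log2 scale (SE; limma adjusted p = 0.0454), with contrasts of -1.69 in Sod1G86R and -2.60 in WT mice. That call was lost in 37 of the 57 fits that left out 1 library. For Kcna10, a rarely expressed Kv1 gene, the difference was -0.76 ± 0.20 (SE; limma adjusted p = 0.0261). Hcn2, Hcn3 and Hcn4 did not pass, with differences of 0.56 for Hcn2, -0.99 for Hcn3 and -0.43 for Hcn4 (limma adjusted p = 0.378, 0.0791 and 0.0570). edgeR called 4 members and DESeq2 called 6.

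Within CSN, Sod1G86R mice were set against WT mice over the 4 ages, to ask which channel genes differ in these neurons between the genotypes. Of 77 members that passed the filter on low values 13 differed (16.9%), against 19.1% of the 19093 genes tested, so the share of members was close to that of all genes. Of these 9 were higher in Sod1G86R (11.7% of members, against 12.8% of all genes) and 4 were lower (5.19%, against 6.31%). The 12 members not tested in CSN were Hcn4, Kcne3, Kcne4, Kcng3, Kcnh8, Kcnj5, Kcnj8, Kcnk5, Kcnk9, Kcnmb3, Kcnn4 and Kcnv2. With quantile normalization 13 members were also called, but 5 were higher and 8 lower, and 7 of them were among the 13. None of the 13 separated the genotypes without overlap. In the same comparison 7 of 15 pan-neuronal genes and 4 of 14 CSN and deep-layer markers were higher in Sod1G86R and none lower, while 1 of 12 oligodendrocyte markers (median log2 fold change -0.98), 2 of 8 oligodendrocyte precursor markers and 3 of 14 microglia markers (median -0.91) were lower and none higher. Oligodendrocyte markers summed to 8687 to 103800 in Sod1G86R CSN and 4824 to 327800 in WT CSN, and the part of these cells in the member calls was not tested.

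The auxiliary subunits gave 3 of the 9 rises. Kcnab3, a Kv beta subunit (chr11:69326258-69333042, plus strand), had 2477, 3810 and 4779 (lowest, median, highest) in Sod1G86R CSN, against 1103, 1863 and 3068 in WT CSN. All 13 Sod1G86R libraries lay above the WT mean, and the log2 fold change was 0.94 ± 0.13 (SE; limma adjusted p = 6.84e-05). Kcnip4, a KChIP gene, had 2422, 4027 and 6238 in Sod1G86R CSN, against 1871, 2694 and 3534 in WT CSN (log2 fold change 0.59 ± 0.11, limma adjusted p = 0.000568), with a small part of its exons shared with a gene on the other strand. Kcnab1 had 2530, 3752 and 5765 in Sod1G86R CSN, against 1947, 2651 and 3657 in WT CSN (log2 fold change 0.51 ± 0.12, limma adjusted p = 0.00328). For each of these the highest WT libraries reached into the Sod1G86R range.

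Per kilobase, Kcnab3 held 32.3 ± 6.39% of the summed Kv beta level in Sod1G86R CSN and 19.4 ± 4.16% in WT CSN (SD, n = 13 and 16). Kcnab2, the Kv beta gene that ranked first in CSN, held 56.9 ± 7.45% in Sod1G86R CSN and 71.4 ± 5.17% in WT CSN. In the KChIP family Kcnip4 held 61.2 ± 8.30% in Sod1G86R CSN and 49.4 ± 6.35% in WT CSN, and Kcnip3 35.4 ± 7.94% in Sod1G86R CSN and 44.6 ± 7.30% in WT CSN. All of these shares overlapped between the genotypes. Kcnab2 and Kcnip3 were not themselves called between the genotypes in CSN, and a share also falls where another gene of the same sum rises.

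Of the silent modifiers Kcns3 and Kcng2 rose. Kcns3 had 258.5, 510.8 and 1149 (lowest, median, highest) in Sod1G86R CSN, against 63.3, 278.7 and 487.6 in WT CSN (log2 fold change 0.99 ± 0.19, limma adjusted p = 0.000759). Kcng2 had 650.1, 1023 and 1610 in Sod1G86R CSN, against 359.8, 684.1 and 868.0 in WT CSN (log2 fold change 0.55 ± 0.13, limma adjusted p = 0.00372). The medians lay above the highest WT library in both genes, and the lower Sod1G86R libraries lay within the WT range.

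In the Kv1 to Kv4 class Kcna2 and Kcna1 rose and Kcna10 fell. Kcna2 had 15050, 19320 and 29330 in Sod1G86R CSN, against 11150, 16380 and 19260 in WT CSN (log2 fold change 0.33 ± 0.10, limma adjusted p = 0.0166), and Kcna1 averaged 5734 ± 1586 in Sod1G86R CSN and 4348 ± 958.5 in WT CSN (log2 fold change 0.34, limma adjusted p = 0.0410). Kcna10 averaged 9.54 ± 9.98 in Sod1G86R CSN and 26.4 ± 26.6 in WT CSN, near the lower limit (log2 fold change -0.42, limma adjusted p = 0.0456). Its call was lost in 19 of the 29 fits that left out 1 library, and that of Kcna1 in 14. With quantile normalization the log2 fold changes of Kcna2 and Kcna1 were 0.02 and 0.13 and no longer passed (limma adjusted p = 0.895 and 0.511).

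Of the HCN genes Hcn3 fell. It had 118.8, 294.3 and 540.1 (lowest, median, highest) in Sod1G86R CSN, against 191.0, 454.9 and 1010 in WT CSN (log2 fold change -0.68 ± 0.18, limma adjusted p = 0.00955). The groups overlapped over most of the Sod1G86R range. Hcn2 averaged 673.8 ± 259.4 in Sod1G86R CSN and 602.2 ± 172.5 in WT CSN (log2 fold change 0.10, limma adjusted p = 0.702). Of the summed HCN level per kilobase Hcn3 held 6.84 ± 3.06% in Sod1G86R CSN and 12.3 ± 5.11% in WT CSN.

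The remaining calls were of 4 genes. Kcnh7, an ERG channel, averaged 10210 ± 1897 in Sod1G86R CSN and 7997 ± 1707 in WT CSN (log2 fold change 0.35, limma adjusted p = 0.0275), a call lost with quantile normalization (log2 fold change 0.09, limma adjusted p = 0.646) and in 3 of 29 fits that left out 1 library. Kcnh4, an ELK channel, averaged 35.6 ± 19.2 in Sod1G86R CSN and 73.6 ± 32.0 in WT CSN (log2 fold change -0.67, limma adjusted p = 0.00516). Kcnk1 had 676.0, 1676 and 2807 (lowest, median, highest) in Sod1G86R CSN, against 373.7, 932.7 and 2331 in WT CSN (log2 fold change 0.61 ± 0.19, limma adjusted p = 0.0253). Kcnk13 averaged 37.2 ± 59.6 in Sod1G86R CSN, also near that level, and 104.7 ± 133.3 in WT CSN (log2 fold change -0.96, limma adjusted p = 0.0481), a call lost in 20 of 29 fits that left out 1 library. Microglia markers summed to 1567 to 20860 in Sod1G86R CSN and 3954 to 24240 in WT CSN, and their part in the Kcnk13 result was not tested. Kcnh7, Kcnab3 and Kcnk1 share 4.57, 5.13 and 8.01% of their exon bases with other gene models, whose reads the counts cannot separate. None of the 12 inward rectifiers and 7 calcium- and sodium-activated genes tested passed.

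Mitochondrially encoded genes took 3.26 to 10.6% of the value in Sod1G86R CSN and 5.68 to 18.1% in WT CSN. With that share in the fit only Kcnab3 was called (log2 fold change 0.67, limma adjusted p = 0.0477). Without the 90-day libraries 4 members were called, Kcnab3, Kcng2, Kcnip4 and Kcns3, and without CSN Sod1G86R 105 replicate 13 the count was 8.

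**Figure D4:**
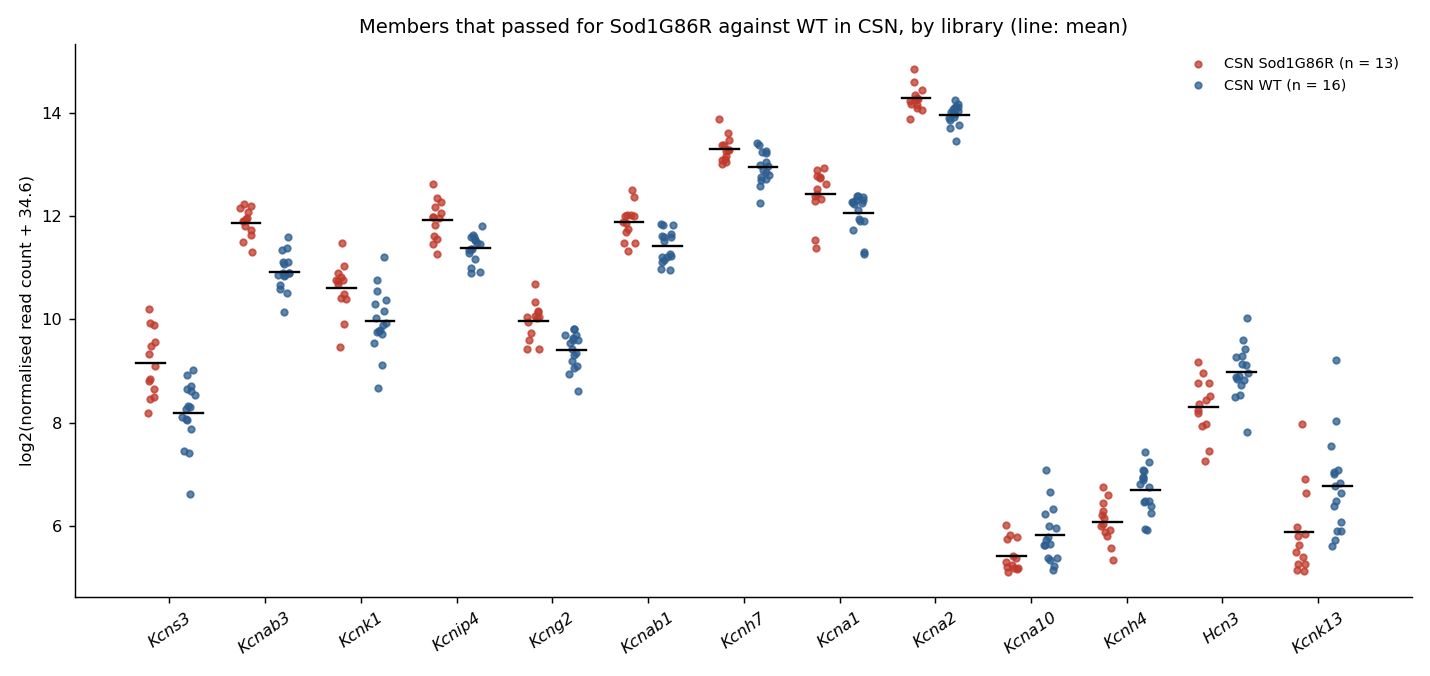
Log2(value + 34.6) of the 13 members called between genotypes in CSN, with Sod1G86R libraries left of WT libraries, where each point is 1 library and lines show the means. Kcnab3 shows the clearest shift, with every Sod1G86R point above the WT mean, and every gene shows overlap.

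The genotypes were also compared at each age, with 2 to 4 CSN libraries a group. At 90 days 4 of 77 members differed (5.19%), against 4.86% of all genes. Kcnk1 had 1770, 2807, 1705 and 1867 in Sod1G86R CSN, against 858.1, 945.5, 812.9 and 519.2 in WT CSN (log2 fold change 1.34, limma adjusted p = 0.0306). Kcnab3 had 4294, 4512, 3120 and 3810 in Sod1G86R CSN, against 2631, 3068, 1829 and 1423 in WT CSN (log2 fold change 0.85, limma adjusted p = 0.0362). Neither gene overlapped between the genotypes at that age.

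Kcnip4 at 90 days had 4027, 4030, 6238 and 3609 in Sod1G86R CSN, against 3076, 2949, 1902 and 1871 in WT CSN (log2 fold change 0.87, limma adjusted p = 0.0236). Kcnj4, a Kir2 gene, fell, with 361.5, 335.0, 409.6 and 469.4 in Sod1G86R CSN, against 734.7, 498.0, 1161 and 685.3 in WT CSN (log2 fold change -0.86, limma adjusted p = 0.0487). Again the groups did not overlap in either gene. The log2 fold changes of Hcn2 and Hcn3 at 90 days were -0.26 and -0.78, and neither passed (limma adjusted p = 0.683 and 0.151). The count of 4 fell to 0 when any of 5 of the 8 libraries was left out (WT replicates 7 and 9, Sod1G86R replicates 3, 5 and 6), and was 7 without WT replicate 6 and 9 without Sod1G86R replicate 8.

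At 30 days no member passed, against 0.0157% of all genes at the same adjusted threshold, with 0 calls by edgeR and 5 by DESeq2. An unadjusted p under 0.05 was found for 13 members, and the share of all genes at that looser threshold is not given here or below. Hcn3 had 118.8, 403.3 and 294.3 in Sod1G86R CSN, against 1010, 737.3, 435.6 and 591.8 in WT CSN at that age. The groups did not overlap, and the log2 fold change was -1.31 (limma adjusted p = 0.151). Kcns3, Kcnab3 and Kcng2 had log2 fold changes of 1.44, 1.06 and 1.01. At 60 days no member passed, against 0.0314% of all genes, with 7 at an unadjusted p under 0.05. At 105 days, with 2 Sod1G86R libraries, no member passed, against 0.021% of all genes, with 5 at an unadjusted p under 0.05. edgeR and DESeq2 called 0 at both of these ages.

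The group means of Kcnab3 at 30, 60, 90 and 105 days were 3681, 3729, 3934 and 3658 in Sod1G86R CSN, and 1737, 2018, 2238 and 1865 in WT CSN. The Sod1G86R mean was the higher one at each age, with log2 fold changes of 1.06, 0.88, 0.85 and 0.96 (limma adjusted p = 0.128, 0.507, 0.0362 and 0.617). The means of Hcn3 were 272.1, 389.3, 245.5 and 306.7 in Sod1G86R CSN, and 693.6, 497.7, 436.4 and 385.2 in WT CSN. The means of Kcnk1 were 1595, 1320, 2037 and 1321 in Sod1G86R CSN, and 896.0, 1238, 783.9 and 1319 in WT CSN, so that at 60 and 105 days they lay close together.

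**Figure D5:**
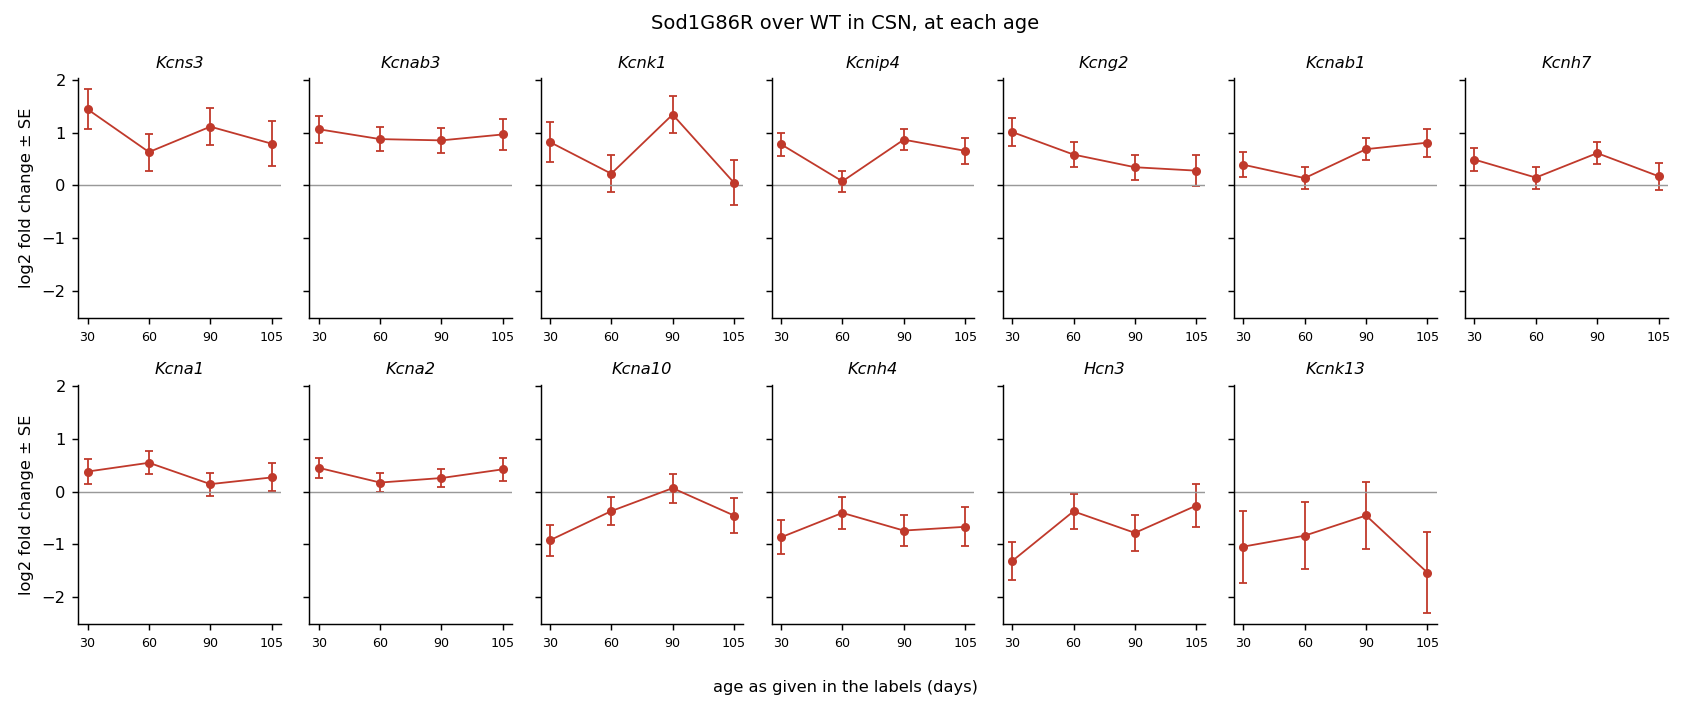
Log2 fold change, Sod1G86R over WT in CSN, at 30, 60, 90 and 105 days for the 13 members called over the ages (limma estimate ± SE). Kcnab3 stays between 0.85 and 1.06, while Kcnk1 is highest at 90 days (1.34) and Hcn3 is lowest at 30 days (-1.31).

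In control cells none of 88 members tested differed between Sod1G86R and WT mice over the ages by limma, against 0.0716% of all genes, with 12 at an unadjusted p under 0.05 and 0 by edgeR and by DESeq2. The smallest p among falls was that of Kcnk13, which averaged 518.2 ± 346.7 in Sod1G86R control cells and 1033 ± 671.6 in WT control cells (log2 fold change -0.998, limma adjusted p = 0.252). Kcnj16 had a log2 fold change of -1.02 and Kcnn3 of -0.81. The log2 fold changes of Hcn2 and Hcn3 in control cells were -0.45 and 0.31 (limma adjusted p = 0.595 and 0.691). Kcna1, Kcna2 and Kcnh7, called in CSN at 0.34, 0.33 and 0.35, had similar values of 0.34, 0.40 and 0.36 in control cells. Those of Kcng2, Kcnk1 and Kcna10 in control cells were -0.35, -0.30 and 0.34, opposite in direction to CSN, as was that of Hcn3. A call in CSN only does not show that the kinds of cells differ.

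Age was tested as 105 against 30 days. In WT CSN no member passed, nor did any gene (0%), with 10 members at an unadjusted p under 0.05. Kcnip1, a KChIP gene, had 318.3, 283.0, 417.0 and 232.3 at 105 days, against 71.7, 80.5, 201.1 and 96.2 at 30 days. Its groups did not overlap, and the log2 fold change was 1.29 (limma adjusted p = 0.517). Hcn3 had a log2 fold change of -0.83 with age in WT CSN (limma adjusted p = 0.726) and Hcn2 of -0.20. In Sod1G86R CSN no member passed, nor did any gene (0%), with 1 member, Kcnh6, at an unadjusted p under 0.05 (log2 fold change -1.08), and values of -0.36 and 0.23 for Hcn2 and Hcn3.

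The genotype by age interaction in CSN also gave no member and no gene (0%), with 2 members at an unadjusted p under 0.05, Kcnc4 at 0.69 and Kcns2 at -0.92, and values of -0.16 and 1.05 for Hcn2 and Hcn3. In WT control cells no member passed between 105 and 30 days, against 0.00955% of all genes, with 10 at an unadjusted p under 0.05. Kcnn1, an SK gene, averaged 104.1 ± 94.7 at 105 days and 420.2 ± 184.8 at 30 days there (SD, n = 4 each; log2 fold change -1.97, limma adjusted p = 0.122). Hcn2 and Hcn3 had log2 fold changes of -1.57 and -0.79. edgeR and DESeq2 called 0 members in each of these 4 age tests.

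Genes that work with these channels were counted over 4 lists. Over all genes 26.8% were higher and 29.5% lower in WT CSN than in WT control cells. Of 20 channel partners and anchors 13 were higher and 3 lower in WT CSN than in WT control cells, including Pex5l, which traffics HCN channels (7121 ± 1849 in WT CSN and 2742 ± 1724 in WT control cells, log2 fold change 1.36), and the axonal genes Cntn2 and Sptbn4 (log2 fold changes 1.503 and 1.58). Of 14 sodium channel genes and partners 8 were higher and 2 lower, led by the beta subunit Scn4b at 4.51, with means of 4860 in WT CSN and 236.7 in WT control cells, and by the pore subunits Scn1a at 2.16 and Scn8a at 1.44. Of 16 calcium channel genes 11 were higher and 4 lower, with the T-type pores Cacna1h at 3.12 and Cacna1i at 1.34 and the alpha2delta subunit Cacna2d2 at 2.64. Of 10 genes of potassium and chloride transport 3 were higher and 6 lower, with the sodium-potassium pump subunit Atp1b3 at -1.51 and the cotransporter Slc12a2 at -1.84. In Sod1G86R mice the counts of higher and lower genes were 13 and 2, 8 and 3, 9 and 4, and 3 and 6 in the same order of lists, beside 24.9% higher and 30.6% lower over all genes.

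Between Sod1G86R and WT CSN 12.8% of all genes were higher and 6.31% lower. Of 19 tested partners 3 were higher and none lower, a share near that of all genes, Calm2 at 0.66, Vapa at 0.42 and the Kv4 partner Dpp6 at 0.35. Of 14 sodium channel genes and partners 3 were higher and 2 lower, with Fgf12 at 0.52 and Scn3b at -0.61. Of 16 calcium channel genes none was higher and 4 were lower, with the T-type pore Cacna1g at 846.1 ± 288.0 in Sod1G86R CSN and 1482 ± 357.6 in WT CSN (log2 fold change -0.84, limma adjusted p = 0.000146), Cacna1a at -0.46 and Cacnb3 at -0.37. Of 10 transport genes 2 were higher and none lower, among them the pump subunit Atp1b1 at 0.44. At 90 days, where 3.48% of all genes were higher and 1.38% lower, 3 of the 16 calcium channel genes were lower. These were Cacna1g, Cacna1a and Cacna1c at -1.03, -0.98 and -0.73, and no gene of the other 3 lists passed.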

How the data were processed

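Gene values were deposited for 57 SMART-Seq libraries. Per the labels' protocols, total RNA was amplified with SMART-Seq v4 and made into Nextera XT libraries, a kit that does not mark strand; reads were paired and aligned with STAR 2.7.0 to GRCm38 with Ensembl 87, per the series' design text. edgeR and the mm10 build are listed in the submitters' processing notes. The deposited table holds a normalized signal: counts divided by a factor per library, by a method not given in the sources used here. Multiplying back gave whole reads for 100% of values (within 0.001), and libraries of 22.2 to 64.2 M reads; 350 of 45337 rows have no symbol. More deeply read libraries have less counting error in low genes.

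Differences were tested with limma 3.58.1 (trended, robust) in R 4.3.3 on log2(value + 34.59), 34.59 being 1 ppm of the median total, for genes at that value in at least 3 libraries of the fit, with Benjamini-Hochberg adjustment over all genes and a threshold of 0.05. The CSN against control fits hold all 57 libraries, and the others the libraries of 1 kind of cell. edgeR 4.0.16 and DESeq2 1.42.0 on the recovered reads, other pseudocounts, no filter, quantile normalization, the mitochondrial share as a covariate, the blocks below, no 90-day libraries and leaving out each library were alternatives. On simulated data with 21134 genes the CSN against control fit in WT mice recovered 52% of 2-fold and 97% of 4-fold changes; the genotype fit in CSN recovered 58% and 92% on 19083 genes, and at 90 days 6% and 57% on 19046 genes.

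In each comparison the HCN genes are named and, per class, up to 3 called rises and 3 falls with a group mean of at least 345.9; where fewer than 3 members passed, those with the smallest p. A few items are not reported here. Others that are named were chosen after their values were seen. Members and lists were chosen with earlier results of these data known. CSN and control libraries of 1 mouse are paired by the labels; over 25 such pairs the correlation of deviations ran from -0.318 to 0.282 (median 0.0385), and the animal block changed no call in the CSN against control contrasts. Genotypes share only numbers, not mice.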

Additional observations from a re-analysis of the deposited data

Results flagged for a closer look

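In 96 groups of 4 CSN libraries, over the members called between genotypes and the other HCN genes, a single library was looked for that stood far from the others, and 8 such values were found. Chance gives about 1 in 20 groups. Kcnk1 was 2807 in CSN Sod1G86R 90 replicate 5, where the other 3 libraries had 1705 to 1867. That library also had the highest CSN values of Kcnc2 (560.5), Kcnip2 (578.5) and Kcnv1 (2300), genes with higher levels in control cells. Its upper-layer marker sum of 18110 was the highest in CSN. The highest GABAergic and mural sums in CSN were 5170 and 5088. This library had a GABAergic sum of 4718, above every WT CSN library (highest 4271). Its mural sum of 5000 was the highest in Sod1G86R CSN. Its oligodendrocyte, oligodendrocyte precursor and microglia sums of 72548, 1279 and 7089 lay within the WT CSN ranges, as did its astrocyte sum. Without this library the log2 fold change of Kcnk1 between genotypes was 1.18 at 90 days (limma adjusted p = 0.106) and 0.57 over the ages (limma adjusted p = 0.0422). The part of other cells in this library was not tested.

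Kcnip4 was 6238 in CSN Sod1G86R 90 replicate 6, where the others had 3609 to 4030, and Kcnk13 was 215.9 in the same library, where the others had 14.99 to 28.4. Kcnk13 was 559.9 in CSN WT 105 replicate 13, where the others had 14.2 to 55.7. Kcnh7 was 10940 in CSN WT 30 replicate 3, where the others had 6572 to 7053. CSN Sod1G86R 60 replicate 3 stood apart for 2 genes near the lower limit, Hcn4 at 13.6 where the others had 1 to 1.31, and Kcna10 at 30.3 where the others had 0 to 2.62. Hcn4 was 7.26 in CSN WT 90 replicate 7, where the others had 0 to 1.23.

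For 2 members limma's interaction test of the genotype difference between the 2 kinds of cells passed. The difference in CSN minus that in control cells was 0.91 for Kcnk1 and -0.76 for Kcna10 on the log2 scale (limma adjusted p = 0.0454 and 0.0261). Both calls were lost with quantile normalization and with the mitochondrial share in the fit, and that of Kcnk1 also without a filter, with the larger pseudocount, without the 90-day libraries and in 37 of 57 fits that left out 1 library.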

How the results depend on the processing

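Counts of called members moved by more than 1.5 times under these settings, and the cause was not tested. The counts of all genes under these settings are not given here, so no change is shown to be particular to the members. With the mitochondrial share in the fit, 35 members were called between CSN and control cells in WT mice (19 higher, 16 lower; 64 without it), 0 in the interaction of cells and genotype, 1 between genotypes in CSN and 0 at 90 days. Under that setting the log2 fold changes of 4 named and called members between CSN and control cells in WT mice turned positive: Kcnip4 0.16, Kcnip1 0.56, Kcns1 0.53 and Kcnk4 0.27. Without a filter the genotype count in CSN was 8, that at 90 days 0 and that of the interaction 1. Quantile normalization gave 1 at 90 days and 0 in the interaction. Without the 90-day libraries the genotype count was 4 and the interaction count 1, and the interaction count was 1 with a pseudocount 4 times as large, 4 with edgeR and 6 with DESeq2. DESeq2 gave 5 at 30 days and 8 at 90 days.

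Leaving out 1 library gave 8 to 14 calls between genotypes in CSN, 0 to 1 at 30 days (1 without CSN WT 30 replicate 4), 0 to 9 at 90 days, 0 to 4 in the interaction (0 without CSN Sod1G86R 105 replicate 13 or control WT 60 replicate 1, 4 without control Sod1G86R 90 replicate 8) and 0 to 2 for age in WT control cells (2 without control WT 105 replicate 12). The CSN against control counts stayed at 60 to 65 in WT and 58 to 64 in Sod1G86R mice. With a replicate block by number within age, 7 members were called between genotypes in CSN (4 higher and 3 lower, 5 of them among the 13) and 0 at 90 days. Over 9 same-numbered CSN pairs of the 2 genotypes the correlation of deviations ran from -0.0464 to 0.483 (median 0.242), and 5 were over 0.1. The main genotype fit leaves out whatever same-numbered libraries share, which the labels do not describe. Leaving it out can make an adjusted p too high or too low, and which holds here was not tested. Since only 5 of the 13 calls in CSN held with the block, these calls depend on that choice. No paired analysis was possible because the age groups share no numbers, for the age tests. In control cells the genotype fit with a block was not run: 7 pairs share a number, but none at 60 days. Of the values of named genes under all settings, 8712 kept their call or lack of one, 168 lost the call and 17 gained it. A further 4 turned direction with a call in either fit. A value that turned direction without a call in either fit counts among the 8712. The fits that left out 1 library and genes without a call are included, so these counts are no measure of how stable the calls are. DESeq2 scaling moved the median of all genes by -0.127 in the CSN against control contrast of Sod1G86R mice and by -0.109 in the interaction. Tests at single ages rest on 2 to 4 libraries a group, and at 90 days the fit recovered 6% of simulated 2-fold changes. Members near the lower limit, such as Hcn4 and Kcna10, rest on few reads.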

Other observations

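Kcnj13, a channel of the choroid plexus epithelium, and Kcne2, an auxiliary subunit of the same tissue, had their highest values in 1 library. In control WT 90 replicate 9 Kcnj13 was 12810 and Kcne2 was 320.0, while the next highest control library had 705.0 for Kcnj13 and 53.5 for Kcne2. Kcnj13 shares 49.1% of its exon bases with Gigyf2, so part of its reads is uncertain. Of the 13 members called between genotypes in CSN, 4 lie on chromosome 3 (Hcn3, Kcna2, Kcna10 and Kcnab1), where 10 members lie, a count given as a description with no test.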
